A study of Homo sapiens with 7 samples.

Results

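The genes described are 4 tropomyosins (TPM1, TPM2, TPM3 and TPM4), 2 actinins (ACTN1 and ACTN4) and the myosin light chain MYL6. They were chosen by name, as actin-binding or actomyosin genes whose transcripts carry mutually exclusive or cassette exons, and were found through the Ensembl stem of the gene identifier. They make up 7 of the 14294 genes and 979 of the 386982 isoforms in the deposited table. All 7 had a mean level of at least 5 TPM, the filter for genes compared here.

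Full-length polyadenylated RNA was counted per isoform in 7 libraries of the human embryonic stem cell line HUES66. The control, whose genotype the labels give as WT, was compared with 6 libraries in which Cas13d, an RNA-guided nuclease that cleaves RNA, was directed at isoforms of the splicing regulator gene RBFOX2 (labelled RBFOX2 isoform KD). They carry the ids 178135 (G12), 178136 (G11), 178145 (G13), 178146 (G14), 178147 (G3) and 178149 (G5), and no label ties an id to a named RBFOX2 isoform. All 7 cultures, the control included, carry the label piggyBac, a transposon system for inserting constructs, and were given doxycycline at 1 µg/ml for 24 h. Each group is 1 library, so no difference below has a replicate check, no p-value is given, and every interval is a 95% interval that covers counting error only.

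The control was the shallowest library, with 16801842 reads, and G12 the deepest, with 26678538. RBFOX2 stood at 107 TPM in the control, and at 39.2% of that level in G3 and 52.2% in G13; the other 4 G libraries lay between 77.3% and 98.6%. The pluripotency genes POU5F1, LIN28A, L1TD1, DNMT3B, TDGF1 and SALL4 were detected in every library, and their summed level of 1247 TPM in the control compared with 686 to 987 TPM across the 6 others. POU5F1 made up 915 TPM of the control's sum and was at 377 to 588 TPM in the G libraries, whereas L1TD1 was at least 2-fold higher in 5 of them and TDGF1 and SALL4 were above the control in all 6. The median log2 ratio of the 6 genes lay between -0.31 (G13) and 0.19 (G5). Of the 8 striated muscle markers, MYH7 and MYOD1 were not in the table, and the summed level of the rest ran from 8.88 to 24.7 TPM across the G libraries, with the control at 23.5. Of the 6 smooth muscle and mesenchyme markers, MYH11 was not in the table. The other 5 summed to 170 TPM in the control, 69.4 TPM in G14 and 156 TPM in G3, and TAGLN, an actin-associated protein of smooth muscle, went from 68.9 TPM to between 14.1 and 36.0 TPM. That sum was below the control in all 6 G libraries, as TPM2 was, but the members did not move together: in G3, 3 of the 4 markers above the filter were higher than the control (median log2 ratio 0.11), while in G14 all 4 were lower (-1.46). The part of these markers in the TPM2 result was not tested.

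Tropomyosins are coiled-coil dimers that lie along the actin filament and govern which myosins and severing proteins reach it. Tropomyosin genes make several proteins each: alternative promoters give a long or a short amino-terminal end, and mutually exclusive internal exons and alternative last exons change the middle and the carboxy-terminal end. Actinins are antiparallel dimers that cross-link actin filaments, and an exclusive exon pair in their calcium-binding domain separates calcium-sensitive from calcium-insensitive proteins. MYL6 is the essential light chain that binds the neck of non-muscle and smooth muscle myosin II.

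The exons on which the isoform results turn are shown first, read from the GENCODE 29 transcripts (GRCh38) and written 5′ to 3′ in the sense of the gene. TPM1 (chromosome 15, 63042632 to 63071915, plus strand) and TPM2 (chromosome 9, 35681992 to 35690121, minus strand) each have a pair of exclusive 76-nt exons, here named 6a (upstream) and 6b (downstream). Capitals mark the positions at which the exons of a pair differ.
TPM1 exon 6a: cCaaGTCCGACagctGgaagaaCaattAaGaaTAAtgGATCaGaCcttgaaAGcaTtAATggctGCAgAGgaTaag
TPM1 exon 6b: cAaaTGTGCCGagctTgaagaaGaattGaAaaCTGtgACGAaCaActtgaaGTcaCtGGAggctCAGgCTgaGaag
TPM2 exon 6a: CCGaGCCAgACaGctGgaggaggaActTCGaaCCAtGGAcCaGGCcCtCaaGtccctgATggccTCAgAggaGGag
TPM2 exon 6b: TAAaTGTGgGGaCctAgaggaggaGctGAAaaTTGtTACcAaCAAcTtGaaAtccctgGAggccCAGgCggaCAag
The TPM1 pair lies at chr15:63061198-63061273 and chr15:63061713-63061788 and is identical at 43 of 76 positions (56.6%). The TPM2 pair lies at chr9:35685064-35685139 and chr9:35684732-35684807 and is identical at 40 of 76 (52.6%). Each exon resembled its counterpart in the other gene more than its partner: 6a of TPM1 and 6a of TPM2 shared 52 positions (68.4%), and the 6b exons shared 59 (77.6%).

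TPM1 also has 2 promoters and 2 main last exons. Transcripts that begin at exon 1a code for the long proteins and those that begin at exon 1b for the short ones. The coding parts of both first exons are shown with the start codon in capitals.
TPM1 exon 1a, coding part: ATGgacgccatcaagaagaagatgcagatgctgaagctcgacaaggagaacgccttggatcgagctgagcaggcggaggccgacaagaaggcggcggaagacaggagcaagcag
TPM1 exon 1b, coding part: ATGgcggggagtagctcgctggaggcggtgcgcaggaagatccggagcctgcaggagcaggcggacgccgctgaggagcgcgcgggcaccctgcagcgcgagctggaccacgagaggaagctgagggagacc
They lie at chr15:63042830-63042943 and chr15:63048576-63048707. At the other end, exon 9a (chr15:63064064-63064142) is followed by the last exon 9b, or both are left out in favour of the last exon 9d, whose coding part is chr15:63071090-63071169. Capitals mark these exons, after the last 12 bases of the exon before them in lower case.
TPM1 exon 9a: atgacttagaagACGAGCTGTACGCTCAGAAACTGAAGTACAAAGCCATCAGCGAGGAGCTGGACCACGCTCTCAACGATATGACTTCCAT
TPM1 exon 9d, coding part: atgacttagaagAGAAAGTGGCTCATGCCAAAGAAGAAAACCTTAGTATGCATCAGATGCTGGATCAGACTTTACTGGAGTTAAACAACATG

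The exclusive pair of ACTN1 (chromosome 14, 68874143 to 68979440, minus strand) consists of an 81-nt exon at chr14:68878989-68879069 and a 66-nt exon at chr14:68878458-68878523, which code for alternative versions of a calcium-binding EF hand. The alternative exon of MYL6 (chromosome 12, 56158161 to 56163496, plus strand) is 45 nt long, lies at chr12:56160626-56160670 and changes the carboxy-terminal end of the protein. Capitals mark the alternative exon, between 12 bases of each neighbouring exon in lower case.
ACTN1 81-nt exon: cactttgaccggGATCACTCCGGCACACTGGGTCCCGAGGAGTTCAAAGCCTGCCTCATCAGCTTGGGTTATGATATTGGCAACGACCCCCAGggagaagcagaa
ACTN1 66-nt exon: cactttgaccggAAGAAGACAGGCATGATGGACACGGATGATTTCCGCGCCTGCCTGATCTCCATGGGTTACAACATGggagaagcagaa
MYL6 45-nt exon: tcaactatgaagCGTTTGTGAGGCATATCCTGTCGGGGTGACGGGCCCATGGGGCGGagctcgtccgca

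At the level of whole genes, 2 of the 7, TPM2 and MYL6, lay below the control throughout, 3 were higher in all 6 (TPM1, TPM3 and TPM4; TPM3 in 5 of 6 once a length and GC trend was subtracted), and the actinins moved both ways. Levels are in TPM, which in this table is each read count over a constant of its library, without a correction for transcript length, so the genes are not ranked against each other. A gene is called here where log2(TPM + 0.5) differed from the control by at least 2-fold. Of the 42 comparisons of a gene with a G library, 10 were called, all of them lower: 5 for TPM2, 4 for MYL6 and 1 for ACTN4. Over all 7877 genes compared, the share at least 2-fold lower was 18.9% in G14, 14.6% in G13, 10.4% in G11, 10.1% in G5, 8.79% in G12 and 5.14% in G3. The share at least 2-fold higher was 3.97% in G14, 1.89% in G3, 1.04% in G13, 0.724% in G11, 0.546% in G12 and 0.533% in G5. Both directions together came to 22.8% in G14, 15.6% in G13, 11.1% in G11, 10.7% in G5, 9.33% in G12 and 7.03% in G3. Of all genes, 20.5% were lower in every G library than in the control and 21.1% were higher in every one, so a shared direction alone does not set these genes apart.

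**Figure D1:**
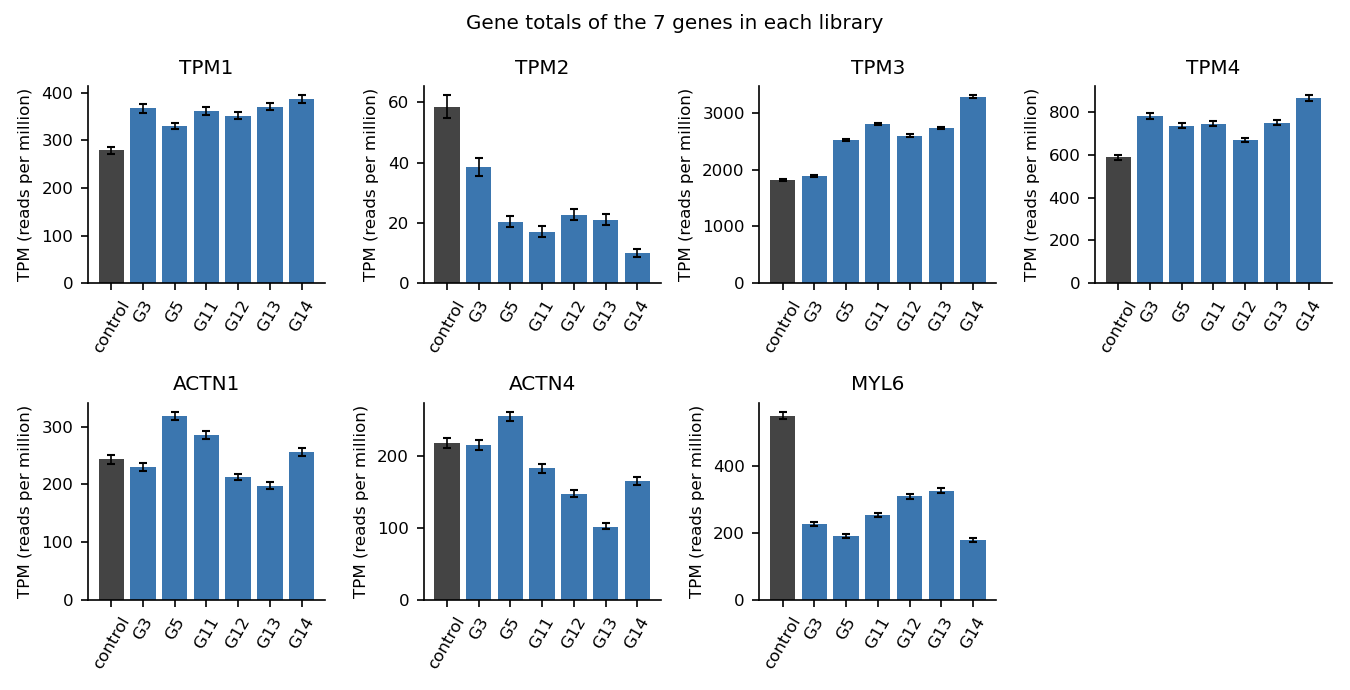
Level of each gene in each library, in TPM (the read count over a constant of its library), with the control in grey and the G libraries in blue; error bars are exact 95% Poisson intervals of the read count, and each panel has its own axis from 0. TPM2 and MYL6 are highest in the control, TPM1, TPM3 and TPM4 are lowest in it, and the control lies among the G libraries for ACTN1 and ACTN4.

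TPM2, which codes for the beta tropomyosin of muscle and fibroblasts, had the lowest median ratio to the control of the 7, although MYL6 was lower relative to the control in G3 and level with it in G5. It stood at 58.5 TPM in the control (983 reads), 38.5 in G3, 22.7 in G12, 21.1 in G13, 20.5 in G5, 17.1 in G11 and 10.0 in G14 (210 reads). G3 was nearest to the control and G14 farthest from it, and no G library reached the control. In RNA from bulk cultures, fewer cells with TPM2 and less TPM2 RNA per cell cannot be told apart. Relative to the control, the level was 65.9% in G3 (59.7 to 72.7) and 17.1% in G14 (14.7 to 19.9), with the other 4 between 29.2% and 38.8%. In the order of levels, G12 and G13, and G13 and G5, did not differ beyond counting error; every other pair of neighbours did.

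MYL6 was the other gene below the control throughout. Its level was 549 TPM in the control, 325 in G13, 309 in G12, 252 in G11, 226 in G3, 191 in G5 and 178 in G14. All 6 G libraries were well below the control, with G12 and G13 the nearest and G14 the lowest. The level was 32.4% (31.2 to 33.7) of the control in G14 and 59.2% (57.4 to 61.1) in G13, and every pair of neighbours in the order differed beyond counting error. MYL6B, the related light chain of slow muscle and non-muscle cells, was at least 2-fold lower in 6 of 6 libraries, from 46.2 TPM in the control to between 9.83 and 22.6 TPM. Its median log2 ratio of -1.34 became -0.74 once the length and GC trend was subtracted.

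TPM1, the alpha tropomyosin gene, was moderately higher in every G library. It stood at 279 TPM in the control, 386 in G14, 371 in G13, 367 in G3, 361 in G11, 351 in G12 and 330 in G5. The G libraries lay close together, from 118% (114 to 123) of the control in G5 to 138% (133 to 143) in G14. Among them G13, G3, G11 and G12 followed each other without a difference beyond counting error.

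TPM3 and TPM4 code for the tropomyosins that most non-muscle cells contain. Both, like MYL6, have processed copies elsewhere in the genome, and the sources do not say which copy a shared read went to, which leaves these totals uncertain. TPM3 was at 1816 TPM in the control, 3281 in G14, 2805 in G11, 2730 in G13, 2599 in G12, 2525 in G5 and 1888 in G3. G3 was thus almost level with the control, at 104% (102 to 106), while G14 reached 181% (178 to 183). TPM4 was at 588 TPM in the control, 865 in G14, 782 in G3, 749 in G13, 745 in G11, 737 in G5 and 667 in G12. Its G libraries ran from 114% (111 to 116) of the control in G12 to 147% in G14, so none of the 3 genes that were higher reached 2-fold anywhere.

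ACTN1, which cross-links actin in stress fibres and adhesions, showed no common direction. It stood at 243 TPM in the control, 319 in G5, 286 in G11, 256 in G14, 230 in G3, 212 in G12 and 198 in G13. G5 was highest, at 131% of the control (126 to 136), and G13 lowest, at 81.3% (77.9 to 84.8). ACTN4, the other non-muscle actinin, was at 219 TPM in the control, 255 in G5, 215 in G3, 183 in G11, 165 in G14, 148 in G12 and 102 in G13. The actinins had the same highest and lowest library, with ACTN4 spread further: 117% of the control (112 to 122) in G5 and 46.6% (44.2 to 49.1) in G13. Control and G3 did not differ beyond counting error for ACTN4. The ACTN4 call in G13, a log2 ratio of -1.10, is close to the 2-fold line, and it was -0.94 after rescaling by the median of ratios and -0.98 with reference isoforms only.

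Length and GC content were set beside these totals. MYL6, with a mean transcript length of 672 nt, was shorter than all but 0.9% of the genes compared, and TPM2 (1061.5 nt, 59.0% GC) was at the 6.5th percentile of length and the 83.4th of GC content. TPM1, with an annotated mean of 1303 nt (the 11.7th percentile), was higher than the control in all 6 libraries. Its main isoforms, ENST00000404484.9 and ENST00000358278.7, are listed as ending at 63071913, and by their listed spans both are longer than this mean. The percentile and the trend-subtracted values of TPM1 rest on the annotated length and are uncertain for that reason. The part of length and GC content in the total of any single gene was not tested. When a quadratic trend of log2 length and GC content was subtracted in each library, 3 of the 10 calls remained, all of them TPM2: -1.04 in G11, -1.01 in G13 and -1.49 in G14 on the log2 scale. The values in G11 and G13 are close to the 2-fold line. The share of all genes called after this subtraction was not counted. The median log2 ratio of TPM2 over the 6 G libraries went from -1.47 to -0.97, and in G3 it became -0.04. That of MYL6 went from -1.20 to -0.26, still below 0 in 6 of 6. ACTN4 changed sign: its median went from -0.33 to 0.13, and its value in G13 from -1.10 to 0.10. ACTN1 went from a median of -0.01 to 0.35, with G3 the only library below 0, at -0.49. TPM1 moved further from the control, from 0.38 to 0.68, while TPM3 went from 0.55 to 0.45, with G3 at -0.10, and TPM4 from 0.35 to 0.30.

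**Figure D2:**
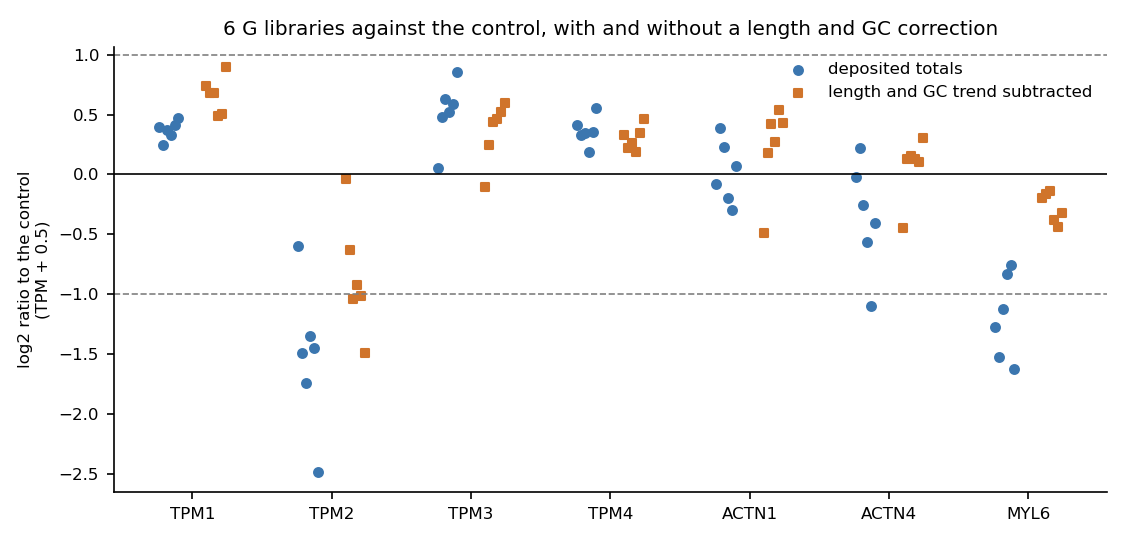
log2 ratio of each gene to the control, with 1 point per G library; circles are the deposited totals and squares the same ratios after the length and GC trend was subtracted, and dashed lines mark 2-fold. MYL6 lies between -1.62 and -0.75 before and between -0.44 and -0.14 after, TPM2 keeps the lowest median, and ACTN4 moves to the other side of 0 in 4 libraries.

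The other actin and actomyosin genes of the list (23 genes, 22 of them at 5 TPM or more) were read in the same way. Of the 22, the count at least 2-fold lower was 11 in G14, 8 in G13, 7 in G11, 6 in G12, 6 in G5 and 5 in G3. The share of all genes called lower was 18.9% in G14, 14.6% in G13 and 10.4% in G11. It was 8.79% in G12, 10.1% in G5 and 5.14% in G3. The count at least 2-fold higher was 1 in G3 and 0 in the others, beside 1.89% of all genes in G3 and 0.533% to 3.97% in the others. The median log2 ratio of the 22 was -1.04 in G14, -0.67 in G13, -0.61 in G12, -0.47 in G11, -0.06 in G5 and 0.22 in G3, beside medians over all genes of -0.21 (G13) to 0.14 (G5). After the length and GC trend was subtracted, the medians of the 22 lay between -0.40 (G14) and 0.08 (G3). CFL1, the actin-severing cofilin, was at least 2-fold lower in 5 of 6 libraries, and the actin-monomer-binding profilin PFN1 in 4 of 6. Their median log2 ratios of -1.24 and -1.29 became -0.70 and -0.85 after the trend was subtracted. The regulatory light chain genes MYL12B and MYL9 were at least 2-fold lower in 4 and 3 libraries, respectively, with median log2 ratios of -1.22 and -1.16 that became -0.84 and -0.98 after the trend was subtracted. The calponin gene CNN3 and the tropomodulin gene TMOD3 had positive medians both before (0.52 and 0.40) and after (0.47 and 0.34), without reaching 2-fold in any library. Caldesmon, CALD1, went from a median of 0.12 to -0.02. FLNA, the filamin that cross-links actin into networks, was the widest: 24.0 TPM in the control, between 0.0439 TPM (1 read) and 56.8 TPM in the G libraries, at least 2-fold lower in 4 of them and higher in 1. The median log2 ratio of FLNA, -5.04, became -2.95 after the trend was subtracted. ACTB and ACTG1 were called in none of the 6.

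For each gene, the gene with the most similar pattern over the 7 libraries was found among 5219 genes of at least 20 TPM, by the root mean square difference of centred log2(TPM + 0.5). This gave PIAS4 for TPM1 (0.02), EEF1D for TPM2 (0.08), DCTD for TPM3 (0.02), CRISPLD1 for TPM4 (0.04), TACC3 for ACTN1 (0.04), UBAP2 for ACTN4 (0.08) and NEDD8 for MYL6 (0.03). The matches of TPM2 and MYL6 had mean annotated transcript lengths of 1265 nt (EEF1D) and 705 nt (NEDD8), and that of TPM1 had 3159 nt (PIAS4). None of the 7 is itself a gene of the actin list. That list holds 30 genes against the 5219 searched, so this outcome says nothing about patterns shared with actin genes. The part of transcript length in the matches was not tested.

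Isoforms came next. Of the 979 isoforms, 12 held at least 5% of their gene on average, and these made up between 78.9% of TPM1 and 94.3% of TPM3. An isoform share is called where it differed from the control by at least 10 points. In the 72 comparisons of these isoforms, 5 were called, all for 1 TPM1 isoform. Over all genes, the share of such isoforms called was 11.4% in G14, 11.3% in G13, 7.97% in G12, 7.66% in G11, 7.04% in G3 and 6.93% in G5. The total variation distance of isoform usage, which is 0 for equal shares and 1 for no isoform in common, reached 0.2 for none of the 7 genes in any library. For all genes, a distance of 0.2 was reached by 14.8% in G13, 14.6% in G14, 11.1% in G12, 10.8% in G11, 9.57% in G3 and 9.25% in G5. TPM1 had the largest distances of the 7 in 5 libraries, up to 0.18 in G13, against a median over all genes of 0.06 to 0.08; in G3 it was at 0.10, below ACTN4 at 0.11. TPM3 stayed between 0.01 and 0.02 in every library.

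The called isoform, ENST00000404484.9, begins at exon 1b, has exon 6a and ends in 9d, which makes it a short TPM1. It held 26.01% of TPM1 reads in the control, 39.6% in G13, 38.6% in G14, 38.3% in G11, 37.2% in G5, 36.2% in G12 and 27.2% in G3. Control and G3 were alike to within counting error, with a difference of 1.23 points (-0.43 to 2.88), and the other 5 libraries were 10.2 (8.58 to 11.8) to 13.6 points (11.98 to 15.2) higher. Its long counterpart ENST00000358278.7, which begins at exon 1a, held 40.3% in G3, 35.1% in G5, 32.6% in the control, 32.1% in G11, 29.6% in G14, 27.4% in G13 and 27.2% in G12. G3 stands out here in the opposite direction, as the library with the largest share of the long form.

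Sorting every TPM1 isoform by its listed start gave the same picture for the promoters. Of the reads that began at 1a or 1b, 1a took 61.3% in G3, 58.5% in the control, 51.2% in G5, 48.2% in G11, 45.3% in G12, 44.8% in G14 and 43.8% in G13. The control and G3 had the largest 1a shares, and from G11 to G14 most reads began at 1b. The 1a share was 2.84 points (0.94 to 4.73) higher than the control in G3 and lower in the other 5, from -7.32 points (-9.15 to -5.49) in G5 to -14.7 points (-16.6 to -12.9) in G13. It was called in 4 libraries (G11, G12, G13 and G14), where 7%, 10.4%, 12.8% and 12.6%, respectively, of 1386 first exons over all genes were called; in G3 and G5 the background was 4.18% and 3.03%. In levels, reads from 1b went from 107 TPM in the control to 199 in G14, 188 in G13, 176 in G12, 174 in G11, 153 in G5 and 135 in G3. Reads from 1a stood at 152 TPM in the control, 215 in G3, 162 in G11, 161 in G14, 160 in G5, 147 in G13 and 146 in G12. The excess of TPM1 over the control was thus mostly in 1b transcripts in 5 libraries, and in G3 mostly in 1a transcripts.

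At the 3′ end, the 9a-9b ending was a minority form everywhere and smaller in every G library. Of the reads ending in 9b or 9d, 9b took 17.2% in the control, 12.7% in G12, 11.6% in G13, 11.2% in G3, 8.45% in G11, 8.37% in G5 and 7.31% in G14. The difference from the control ran from -4.51 points (-5.82 to -3.24) in G12 to -9.89 points (-11.1 to -8.67) in G14, so none reached 10 points. In level, transcripts ending in 9b stood at 27.3 to 44.1 TPM across the G libraries against 46.8 TPM in the control. This is 58.3% (52.6 to 64.6) of the control in G5, but 90.9% (82.6 to 99.96) in G13 and 94.3% (86.1 to 103) in G12, and the G12 level did not differ from the control beyond counting error. Those ending in 9d stood at 299 to 355 TPM against 225 TPM. The last exons also differ in length: 9b runs from 63065896 to 63066093 and the longer 9d from 63071090 to 63071915. The part of transcript length in the 9b share and level was not tested. The table lists only isoforms with a read in the control, a rule that can raise the share of rare isoforms there. Isoforms below 1 TPM held 6.02% of TPM1 in the control, against 2.89% to 3.63% in the G libraries. They held 1.99% of MYL6 in the control against 1.76% to 3.07%, and 9.05% of TPM2 against 5.62% to 12.5%. The part of the listing rule in these shares was not tested. With isoforms of at least 1 TPM only, the 9b difference ran from -3.78 points in G12 to -9.25 points in G14.

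The 2 ends were partly linked within a molecule, as the full-length reads show. The structure of nearly all isoforms with a hashed identifier could be solved from the identifier itself, and this count covers the TPM1 reads whose isoform begins at 1a or 1b and ends in 9b or 9d. Of reads from 1a, 9b took 19.7% in the control and 9.51% to 15.8% in the G libraries; of reads from 1b it took 13.1% in the control and 4.18% to 9.64%. The 9b share was thus higher after 1a than after 1b in all 7 libraries, and lower than the control after either start in all 6 G libraries. A pair of hashed isoforms with the 9a-9b end and exon 6a, which begin at 1a and 1b and were named after their values were seen, made up 5.42% and 3.05% of TPM1 in the control, against 2.23% to 4.76% and 1.23% to 2.66% in the G libraries.

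**Figure D3:**
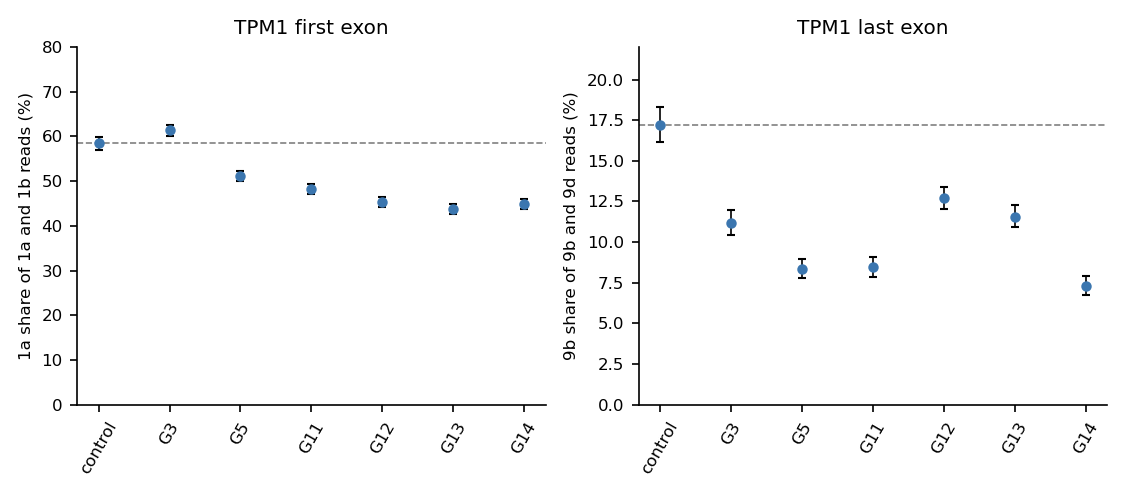
Share of TPM1 reads that begin at exon 1a (left, of reads beginning at 1a or 1b) and that end in exon 9b (right, of reads ending in 9b or 9d), in percent, with Wilson 95% intervals; the dashed line is the control. G3 alone lies above the control on the left, at 61.3%, and all 6 G libraries lie below the control's 17.2% on the right.

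Within TPM1, exon 6a was the main form of the exclusive pair, and its share was higher in every G library. In isoforms with a reference identifier, 6a took 87.0% of the reads with 6a or 6b in the control, 93.9% in G13, 92.6% in G11, 92.3% in G5, 91.5% in G14, 90.7% in G12 and 89.3% in G3. The control was lowest and G13 highest. The differences were 2.31 points (0.88 to 3.77) in G3 to 6.93 points (5.65 to 8.26) in G13, none of them called. With the solved hashed isoforms included, which raised the reads covered from 74.8% to 98.0% of TPM1, the shares were 81.7% in the control, 88.1% in G13, 86.6% in G5, 86.2% in G11, 84.0% in G3, 83.3% in G12 and 82.3% in G14, and the difference in G14 shrank to 0.61 points (-0.79 to 2.02). Among all isoforms with 6b, the most abundant is a hashed one that begins at 1b and ends in 9d, at 6.34% of reads in the control, 9.37% in G14, 7.86% in G12, 6.39% in G11, 6.26% in G3, 5.91% in G5 and 5.62% in G13. Over all genes, 9.66% of 3280 internal exons were called in G14, 7.87% in G13, 6.55% in G11, 6.52% in G12, 5.64% in G3 and 5.55% in G5. The exclusive exons 2a and 2b at the 5′ end of the long forms, where 2a held under 2% on average, gave 2a in 1.22% of reads in the control and 1.75% to 2.50% in the G libraries; this pair was named after its values were seen.

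TPM2, in contrast, used mainly 6b, and its ratio did not differ from the control beyond counting error in any library despite the lower total. Exon 6a took 22.9% of the reads with either exon in the control, 27.1% in G5, 26.2% in G12, 25.8% in G14, 22.9% in G3, 22.5% in G11 and 20.6% in G13. The shares lay on both sides of the control, with differences from -2.21 points (-6.79 to 2.66) in G13 to 4.21 points (-0.70 to 9.31) in G5. At 182 to 875 reads per library, the intervals allow differences of several points either way. Both isoforms, ENST00000329305.6 with 6b (60.3% to 70.1% of TPM2) and ENST00000378292.9 with 6a (18.5% to 23.5%), share the same first and last exons. Isoforms that keep sequence between the exons around this pair, also named after their values were seen, held 7.22% of TPM2 in the control, 12.9% in G14, 12.7% in G5, 11.8% in G3, 9.26% in G12, 7.58% in G11 and 7.48% in G13. The difference exceeded counting error in G3 (4.55 points, 1.72 to 7.55), G5 (5.45, 2.30 to 8.90) and G14 (5.63, 1.37 to 11.04), on 27 to 81 reads with such sequence per library.

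TPM3 and TPM4 were dominated by 1 isoform each, a short form in both. ENST00000368533.8 held 93.4% to 95.2% of TPM3 and ENST00000643579.2 held 87.8% to 94.3% of TPM4. A 79-nt alternative exon of TPM3 at chr1:154169305-154169383, which holds under 2% and was named after its values were seen, was present in 1.01% of reads in the control and 0.85% to 1.02% in the G libraries. The largest difference of the TPM4 isoform was in G13, -4.69 points from the control.

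ACTN1 shared 1 feature with TPM1: the minor forms of its exclusive pair were smaller in every G library. Of the reads with the 81-nt or the 66-nt exon, the 81-nt exon took 95.3% in the control, 98.7% in G13, 97.6% in G5, 97.6% in G11, 96.9% in G14, 96.8% in G12 and 96.2% in G3. As for TPM1 exon 6a, the control was lowest and G13 highest. The difference was 0.94 points (0.03 to 1.87) in G3 and 3.41 points (2.65 to 4.21) in G13, below the 10-point threshold. With solved hashed isoforms included, the share in G3 no longer differed from the control beyond counting error (0.84 points, -0.05 to 1.75).

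A larger part of the ACTN1 difference lay in transcripts with neither exon, which the reference isoforms do not hold. A hashed isoform with 20 exons, named after its values were seen, made up 5.52% of ACTN1 in the control, 4.14% in G14, 3.95% in G3, 3.92% in G12, 2.77% in G11, 2.32% in G5 and 2.00% in G13. Over all solved isoforms that span the pair, neither exon was present in 6.36% of reads in the control, 4.56% in G14, 4.08% in G12, 4.06% in G3, 2.98% in G11, 2.41% in G5 and 2.18% in G13. Every G library was below the control beyond counting error, from -1.81 points (-2.76 to -0.88) in G14 to -4.19 points (-5.07 to -3.34) in G13. The 66-nt exon alone took 4.35% in the control and 1.27% to 3.65% in the G libraries, and both exons together took at most 0.28% anywhere. Isoforms under 1 TPM held 3.45% of ACTN1 in the control and 1.29% to 1.90% in the G libraries. The listing rule can raise this difference, and its part was not tested. The 20-exon isoform given above is not among these rare isoforms. Transcripts with the 81-nt exon alone took 89.1% in the control and 92.1% to 96.5% in the G libraries.

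**Figure D4:**
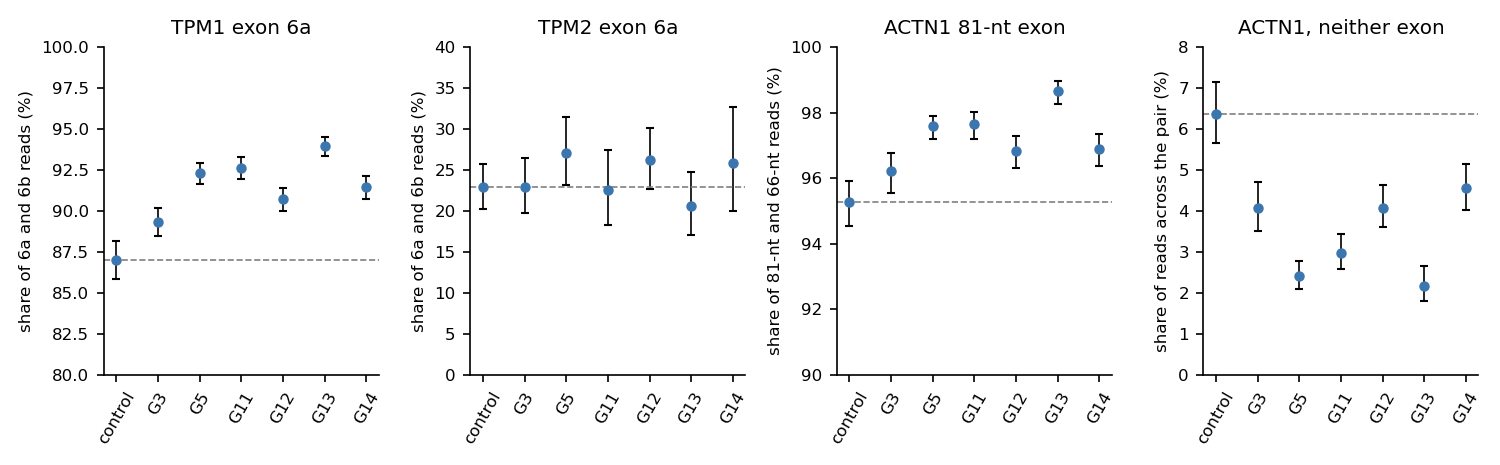
Shares of internal exon forms by library, in percent with Wilson 95% intervals and the control as a dashed line: TPM1 exon 6a, TPM2 exon 6a, the ACTN1 81-nt exon (each of the reads with either exon, reference isoforms), and ACTN1 reads with neither exon (all solved isoforms); the axes of the TPM1 and the ACTN1 81-nt panels do not start at 0. All 6 G libraries lie above the control for TPM1 and the ACTN1 81-nt exon and below it for ACTN1 without either exon, while TPM2 scatters around 22.9%.

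ACTN4 (chromosome 19, 38647649 to 38731583, plus strand) has an equivalent 81-nt and 66-nt pair and a second pair of exclusive 86-nt exons further upstream. Its 2 main isoforms, ENST00000424234.7 and ENST00000252699.7, held 41.4% to 47.4% and 35.7% to 41.7% of its reads. The second holds the upstream 86-nt exon and the 81-nt exon. GENCODE 29 holds another version of the first, whose exons did not match the deposited isoforms, so its exons are not given here. The first took 53.7% of the reads of both in the control, 56.8% in G13, 55.3% in G12, 53.8% in G5, 52.6% in G3, 52.3% in G14 and 50.7% in G11. These values lie on both sides of the control, from -3.01 points (-5.53 to -0.49) in G11 to 3.03 points (0.16 to 5.89) in G13.

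The hashed isoforms of ACTN4 hold both pairs in mixed combinations. In them, the 81-nt exon took 66.3% of the reads with either exon in the control, 59.0% in G11, 57.2% in G12, 55.1% in G13, 52.7% in G5, 52.6% in G3 and 49.4% in G14. All 6 G libraries were below the control, with differences from -7.27 points (-14.5 to -0.08) in G11 to -16.9 points (-24.3 to -9.32) in G14. The direction turned when ENST00000252699.7 was added: the 81-nt exon then took 91.1% in the control and 92.3% to 94.0% in the G libraries. These shares leave out ENST00000424234.7, whose exons are not assigned. ACTN4 isoforms with known exons held 48.9% to 54.4% of its reads, so the shares do not describe ACTN4 as a whole. The hashed reads with either exon are 7.96% of ACTN4 on average, 136 to 488 per library. The table lists only isoforms with a read in the control, and 191 of the 352 ACTN4 isoforms were read in the control alone. Isoforms under 1 TPM made up 13.9% of ACTN4 in the control and 3.55% to 6.54% in the G libraries, more than in any other of the 7 genes in the control. As for TPM1 and ACTN1, that listing rule can raise the control's share of rare ACTN4 forms. It can also lower the shares of both main isoforms in the control. How far it did so was not tested. The upstream 86-nt exon (chr19:38710257-38710342) took 63.96% of hashed reads with either 86-nt exon in the control and between 55.9% (G13) and 71.9% (G3) in the G libraries, on both sides of the control.

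The isoform shares of MYL6 moved by less than 4 points while its level was lower. ENST00000547649.5, without the 45-nt exon, held 91.3% of MYL6 in the control, 91.3% in G13, 90.6% in G12, 90.2% in G11, 89.99% in G14, 89.1% in G5 and 87.6% in G3. The 45-nt exon, under 2% on average and named after its values were seen, was present in 1.65% of reads in the control, 1.94% in G3, 1.91% in G12, 1.86% in G11, 1.70% in G5, 1.68% in G13 and 1.20% in G14. None of these differed from the control beyond counting error; the widest interval, for G3, ran from -0.21 to 0.84 points.

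Reads that begin outside the first exons of the listed reference isoforms with usable exons formed a separate group in 4 of the genes. Of these reference isoforms, 3 of 6 for TPM4 and 3 of 7 for ACTN1 were not usable, so some such reads may begin at another annotated first exon. In TPM1, TPM4, TPM3 and ACTN1 the most abundant of them begin within a few bases of an internal exon. For TPM4 they held 6.29% of reads in the control, 11.5% in G13, 9.66% in G14, 9.12% in G12, 7.86% in G11, 5.996% in G5 and 4.84% in G3. G3 was lowest and G13 highest in all 4 genes, although in TPM3 G14 was almost level with G13: TPM1 went from 4.61% to 9.73% (control 7.13%), TPM3 from 2.11% to 3.32% (2.28%) and ACTN1 from 1.37% to 4.37% (1.64%). G3 and G13 are also the libraries with the highest and the lowest TPM1 1a share; the part of these shorter reads in the first-exon shares was not tested. TPM2 and ACTN4 had no such reads, and in MYL6 they stayed between 0.43% and 0.89%.

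**Figure D5:**
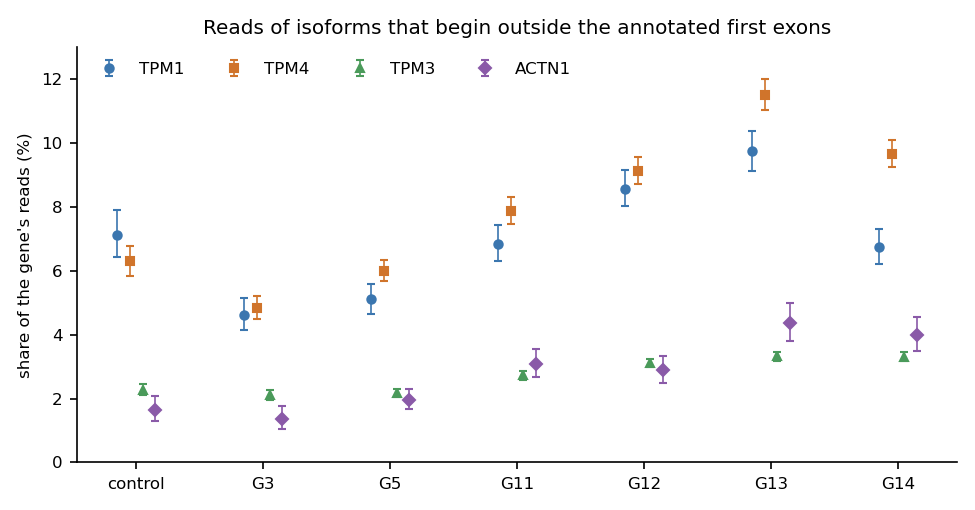
Share of each gene's reads in isoforms that begin outside the first exons of its listed reference isoforms with usable exons, in percent with Wilson 95% intervals, for TPM1, TPM4, TPM3 and ACTN1. G3 is lowest and G13 highest in each gene, with TPM4 reaching 11.5% in G13.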

How the data were processed

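The 7 libraries were sequenced from polyadenylated RNA as 8-fold cDNA arrays (MAS-Seq) on the Revio system, per the labels' protocols. The deposited table holds, for each isoform, the count of full-length reads in every library and its TPM; the counter and its filters are not given in the sources used here. The submitters' processing notes name minimap2 2.17 and GRCh38. Every listed isoform has at least 1 read in the control. The deposited TPM equalled count over 1 constant per library, and empty cells were read as 0.

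Counts were summed per gene and compared as log2(TPM + 0.5) with Python 3.11.15 and scipy 1.17.1. The length and GC correction subtracted, in each library, a second-degree polynomial in GC content and log2 length, fitted to deviations from each gene's mean over libraries, and was applied to 7736 of the 7877. Ratios have exact Clopper-Pearson intervals, shares Wilson and differences of shares Newcombe intervals, all at 95%. They cover counting error only, since each group is 1 library. The reads carry no molecular identifiers, so copies of the same molecule cannot be told apart and the intervals may be too narrow. First and last exons were set from listed starts and ends within 300 bases of annotated ends, using only the ends of listed reference isoforms with usable exons. Internal exons came from reference isoforms in GENCODE 29. Hashed identifiers were found to be 64-bit hashes of the splice sites: 3756 equal the hash of a GENCODE 29 chain of the same gene, and none do with all sites moved by 1 base. This solved 891 of the 931 hashed isoforms of the 7 genes, an addition made after the data were seen. For all 7 genes, 9 of 48 reference isoforms had no usable exon structure.

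Named were the 7 genes, their isoforms of at least 5%, exon forms where both forms held at least 2%, a list of actin and actomyosin genes, and the gene with the most similar pattern. The genes and lists were chosen with earlier results of these data known. Scripts were tested on simulated data. Alternatives covered the pseudocount, scaling, reference library, length and GC content, isoform filters and leaving out each library.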

Additional observations from a re-analysis of the deposited data

How the results depend on the processing

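No paired analysis was possible because each group has 1 library and all share the number 1. The 10 calls of gene totals were 10 with pseudocounts of 0.1 or 1 TPM, 9 after rescaling, with reference isoforms or with isoforms of at least 1 TPM only, but 3 after the length and GC trend was subtracted and 1 against the median of the other 6 libraries. Against that median the 5 called isoform shares became 1 and the 4 called exon forms 1, since 5 of the 6 references are then G libraries. Over gene totals, isoform shares and exon forms together, 3 called values fell below their threshold with isoforms of at least 1 TPM only. With reference isoforms only, 2 called gene totals or isoform shares did. A 5-point threshold gave 16 isoform shares. Using the most abundant isoform of each form gave 8 exon forms, adding TPM1 9b in G5, G11 and G14 (-10.9, -10.9 and -11.8 points) and TPM1 6a in G13 (12.3 points). The 54 calls over the actin list of 29 genes became 19 after the length and GC trend was subtracted, and 44 without the 7 genes. Leaving out each G library in turn left 8 to 9 gene calls, 4 to 5 isoform calls and 3 to 4 exon form calls. Each G library is compared with the control alone, so this step only removes that library's own calls and checks nothing further. Without the trend subtracted, the share of all genes called over the 6 libraries was 12.8%, and 14.7% or 10.3% with a minimum of 1 or 20 TPM.

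Single values that were called and changed sign were ACTN4 in G13 (0.10 with the length and GC trend subtracted) and, against the median of the other 6 libraries, TPM2 in G12 (0.12) and ENST00000404484.9 in G5 (-0.090 points) and G12 (-1.54 points). Apart from the trend correction and the choice of reference, whose construction is given above, the cause was not tested. Rescaling moved the ratios by -0.04 to 0.16 on the log2 scale. Depth limits TPM2 exon forms, with 182 reads in G14, and hashed ACTN4 forms, with 136 in G13.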
